A study of Homo sapiens with 9 samples.

Results

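The genes described here encode the plasminogen activator system and were measured in EPC2 cells, a human esophageal epithelial line made immortal with telomerase. They were chosen by symbol: the activators PLAU and PLAT, the receptor PLAUR, and the inhibitors SERPINB2 and SERPINE2, which are 5 of the 24672 genes in the tables. Polyadenylated RNA was sequenced from 3 groups of 3 libraries. In the ALI SPINK7-silenced group, SPINK7 was silenced and the cells stratified at an air-liquid interface (ALI). The ALI NSC group carried a non-silencing control (NSC) and went through the same ALI culture. The monolayer NSC group held control cells that were not differentiated, and the labels give no harvest day for it. For ALI culture the labels' protocols give a calcium switch on day 2 (1.8 mM, after 0.09 mM), air exposure from day 7 and RNA on day 14. The medium of all 3 groups held EGF (1 ng/mL) and pituitary extract (50 ug/mL). No silencing construct and no second silenced population are described, so effects of SPINK7 loss and of the construct cannot be told apart. Whether a group's libraries are separate cultures is not stated either. The p-values therefore reflect library-to-library spread, which may be technical.

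Plasminogen activators are serine proteases that cut the zymogen plasminogen into plasmin, a broad protease of fibrin and matrix. Urokinase (uPA, from PLAU) is secreted as a proenzyme and is held at the cell surface by its receptor uPAR (from PLAUR), while tissue plasminogen activator (tPA, from PLAT) acts mainly on fibrin. Serpins trap these proteases in covalent complexes: plasminogen activator inhibitor 2 (PAI-2, from SERPINB2), abundant in keratinocytes, and protease nexin-1 (from SERPINE2), which also inhibits thrombin. In squamous epithelium, urokinase and its receptor are known from migrating keratinocytes, and PAI-2 from the differentiating upper layers. SPINK7, a Kazal-type inhibitor also called ECRG2, has been described as an inhibitor of urokinase. The tables measure transcripts and hold no measure of enzyme activity.

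The libraries held 7641960 to 14009746 counts. SPINK7 was lower in every silenced library than in every ALI NSC library, at 20.9, 38.6 and 32.7 CPM (counts scaled to 1 common library total) in ALI SPINK7-silenced libraries 1, 2 and 3, against 229.5, 261 and 225 CPM in the ALI NSC libraries. The summed squamous epithelium markers (7 of 7 tested) reached 29560 CPM or more in every library. The 9 markers of stratified squamous cells summed to 2365 to 4115 CPM in silenced and 6775 to 14460 CPM in ALI NSC libraries, against 25.9 to 35.5 CPM in the monolayers. The 7 fibroblast markers summed to 20.8 to 45.6 CPM in silenced and 12.2 to 49.2 CPM in ALI NSC libraries, against 50.1 to 186 CPM in monolayers. Nearly all of this was COL1A1 (20.3 to 45.1 CPM in silenced and 11.6 to 48.3 CPM in ALI NSC libraries, against 48.2 to 184 CPM in monolayers), with LUM at 0 counts and 5 of 7 under 1 CPM throughout. The 7 leukocyte markers summed to 67.1 to 95.4 CPM in silenced and 54.3 to 71.6 CPM in ALI NSC libraries, against 16.6 to 29.8 CPM in monolayers. Most of this was CD68 (66.5 to 87.0 CPM in silenced and 51.7 to 68.6 CPM in ALI NSC libraries, against 15.4 to 29.1 CPM in monolayers), with PTPRC and MS4A1 at 0 counts and 4 of 7 under 1 CPM throughout. CD14 had 8.24 CPM in silenced library 2 and 11.1 CPM in ALI NSC library 2, against 0.374 to 1.90 CPM in the other ALI libraries. The part of COL1A1, CD68 and the proliferation and stratification markers in the comparisons with the monolayers was not tested. The ALI libraries numbered 2 stood apart: on the second principal component of log2 CPM (14.0% of the variance) they lay at -25.5 (silenced) and -78.5 (ALI NSC), and the other 4 ALI libraries at 14.3 to 55. The summed 5 proliferation markers stood at 9.96 CPM in silenced library 2, against 313 and 296 CPM in silenced libraries 1 and 3. In ALI NSC library 2 they stood at 18.3 CPM, against 126 and 135.5 CPM in the other ALI NSC libraries. The monolayer sums were 16.9, 43.1 and 36.9 CPM. Monolayer libraries 2 and 3 were close to sampling noise of each other (chi-square per degree of freedom 1.91), and library 1 differed from them (34.2 and 32.0). Libraries 2 and 3 still differed by more than counting error and were kept apart, which does not show that they are separate cultures. Values without these libraries, or with monolayers 2 and 3 summed, are given where a call changed, and the RPKM values are shown library by library.

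The outcome differed between the comparisons. In ALI NSC cultures against monolayers, SERPINB2 rose and PLAU, PLAT and SERPINE2 fell, while PLAUR did not pass the test. SERPINE2 passed in 11 of 18 alternatives, and the other 3 calls held in all 18. In SPINK7-silenced against control ALI cultures none of the 5 genes passed, and PLAUR came nearest. All 5 genes had at least 1.04 CPM, the filter's level at the median library size, in each of the 9 libraries. In the comparison of ALI NSC with monolayer NSC cultures, 40.5% of the 12806 tested genes passed (20.3% higher and 20.2% lower), so a call alone is common there. In the silencing comparison 0.929% passed (0.226% higher and 0.703% lower), and in ALI SPINK7-silenced against monolayer NSC cultures 31.7% did (15.8% higher and 15.9% lower). The comparisons share libraries in pairs, so their values are not independent of each other. In bulk RNA, fewer cells of a type and less RNA per cell cannot be told apart.

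**Figure D1:**
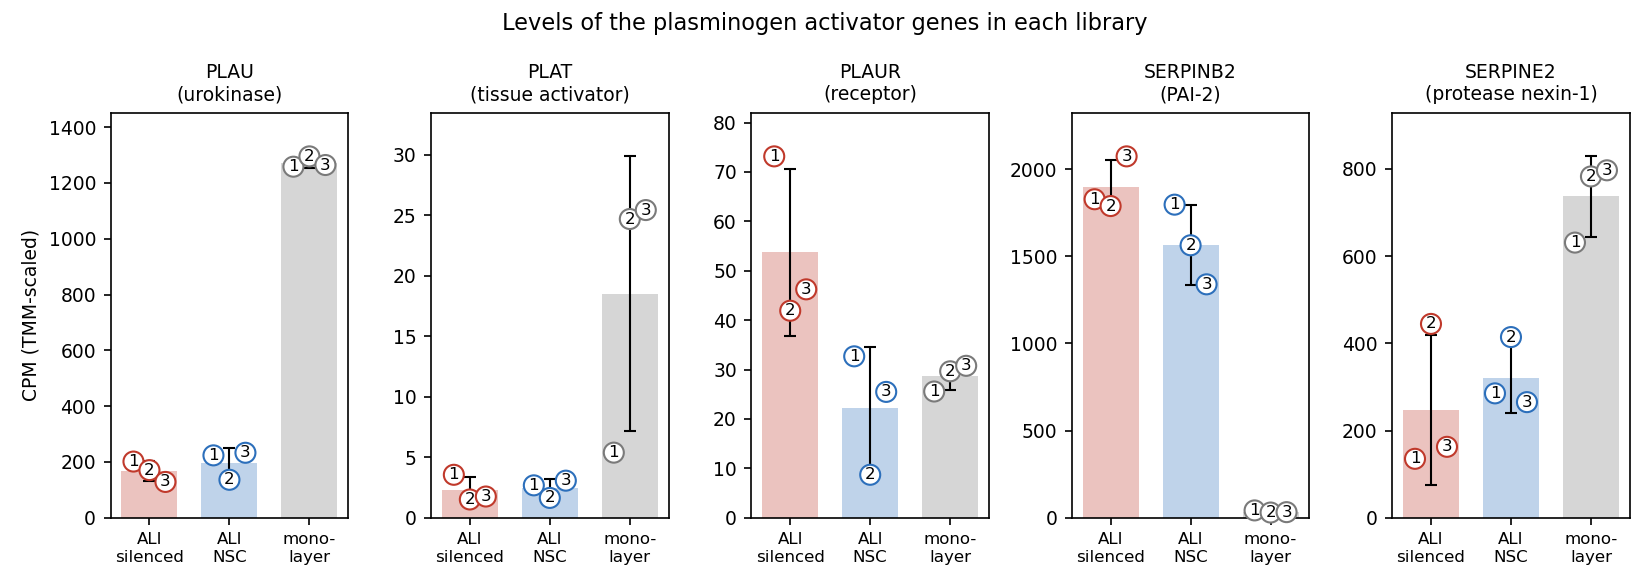
Level of each gene in CPM, on a linear axis from 0, in ALI SPINK7-silenced, ALI NSC and monolayer NSC cultures. Numbered circles are the libraries, bars are means and lines are the SD (n = 3 each). SERPINB2 lies at 1339 CPM or more in every ALI library and at 42.2 CPM or less in every monolayer, PLAU shows the opposite order, and PLAUR is highest in silenced library 1.

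PLAU (chromosome 10, 75670862 to 75677258, plus strand, hg19) encodes urokinase. Its level was 224, 136 and 233 CPM in ALI NSC libraries 1, 2 and 3, against 1258, 1295 and 1264 CPM in the monolayers. Every ALI NSC library lay far below every monolayer, and the monolayers differed little from each other. PLAU fell in ALI NSC cultures, with a log2 fold change of -2.69 (SE 0.28, 95% interval -3.32 to -2.06, edgeR quasi-likelihood adjusted p = 7.18e-05). Its level was 15.5% of the monolayer mean. In silenced cultures PLAU stood at 201, 171 and 128 CPM, again below every monolayer, with a log2 fold change of -2.93 against them (SE 0.29, edgeR adjusted p = 6.00e-05). An overlapping gene on the other strand, C10orf55, held counts equal to 0.320 to 2.46% of those of PLAU.

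PLAT (chromosome 8, 42032236 to 42065194, minus strand, hg19), the gene of tissue plasminogen activator, was scarce. It had 2.68, 1.64 and 3.07 CPM in ALI NSC libraries 1, 2 and 3 (20, 13 and 29 counts), against 5.38, 24.7 and 25.4 CPM in the monolayers (76, 244 and 239 counts). The groups did not overlap, although monolayer library 1 lay closer to the ALI libraries than to the other monolayers. PLAT fell in ALI NSC cultures, with a log2 fold change of -2.89 (SE 0.59, 95% interval -4.21 to -1.58, edgeR adjusted p = 0.00379), and without monolayer library 1 the log2 fold change was -3.33. In silenced cultures PLAT stood at 3.55, 1.51 and 1.76 CPM, a log2 fold change of -3.02 against the monolayers (SE 0.59, edgeR adjusted p = 0.00365). Endothelial cells are another known source of tPA. The summed level of 5 endothelial markers was 1.76 to 2.80 CPM in silenced and 3.53 to 10.1 CPM in ALI NSC libraries, against 0.405 to 0.745 CPM in monolayers. Of those markers 4 stayed under 1 CPM in every library, the exception being VWF. VWF had 2.24, 1.99 and 1.41 CPM in silenced and 8.84, 2.65 and 9.41 CPM in ALI NSC libraries, against 0.354, 0 and 0.106 CPM in monolayers. The part of endothelial cells in the level of PLAT was not tested. The 5 melanocyte markers summed to 0.934 to 1.99 CPM in silenced and 1.64 to 3.28 CPM in ALI NSC libraries, against 0.851 to 1.98 CPM in monolayers, with TYR and DCT at 0 counts.

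PLAUR (chromosome 19, 44150247 to 44174498, minus strand, hg19) encodes the urokinase receptor. In the ALI NSC libraries it had 32.7, 8.70 and 25.5 CPM, against 25.6, 29.7 and 30.8 CPM in the monolayers. The groups overlapped, with ALI NSC library 2 far below the rest. The log2 fold change was -0.36 (SE 0.41, 95% interval -1.27 to 0.55, edgeR adjusted p = 0.502), and it was 0.025 without ALI NSC library 2. Unlike that of its ligand PLAU, the level of PLAUR was thus not shown to differ between ALI NSC and monolayer cultures.

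SERPINB2 (chromosome 18, 61554939 to 61571124, plus strand, hg19), the PAI-2 gene, had the largest change of the 5 genes. Its level was 1796, 1563 and 1339 CPM in ALI NSC libraries 1, 2 and 3, against 42.2, 30.1 and 32.2 CPM in the monolayers. The rise was 5.49 on the log2 scale (SE 0.29, 95% interval 4.84 to 6.14, edgeR adjusted p = 1.16e-06), a 44.9-fold difference. It ranked 365th from the top among the 12806 tested genes by log2 fold change. By CPM it ranked 45th, 67th and 65th in the ALI NSC libraries, against 4416th, 5595th and 5356th in the monolayers. In silenced cultures SERPINB2 stood at 1827, 1788 and 2073 CPM, a log2 fold change of 5.76 against the monolayers (SE 0.30, edgeR adjusted p = 1.49e-06).

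SERPINE2 (chromosome 2, 224839765 to 224904036, minus strand, hg19), the gene of protease nexin-1, was lower in ALI NSC cultures by a smaller margin. It had 285, 414 and 265 CPM in ALI NSC libraries 1, 2 and 3, against 631, 783 and 797 CPM in the monolayers. The groups did not overlap, and ALI NSC library 2 was the highest of its group. The log2 fold change was -1.20 (SE 0.42, 95% interval -2.13 to -0.26, edgeR adjusted p = 0.0447, over alternatives 8.54e-05 to 0.117). That call was lost without ALI NSC library 1 (0.117) or 3 (0.114), without monolayer library 1 (0.0695), 2 (0.106) or 3 (0.107), and with monolayers 2 and 3 summed (0.105). In silenced cultures SERPINE2 stood at 135, 445 and 163 CPM, also below every monolayer, at -1.57 on the log2 scale (SE 0.43, edgeR adjusted p = 0.0185, over alternatives 2.67e-06 to 0.0807). This call was lost without silenced library 1 (0.0532) or 3 (0.0807), without monolayer library 2 (0.0537) or 3 (0.0534), and with both summed (0.0527). Among tested genes, 29.9% lay below the monolayers without overlap in ALI NSC cultures and 27.7% in silenced cultures.

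**Figure D2:**
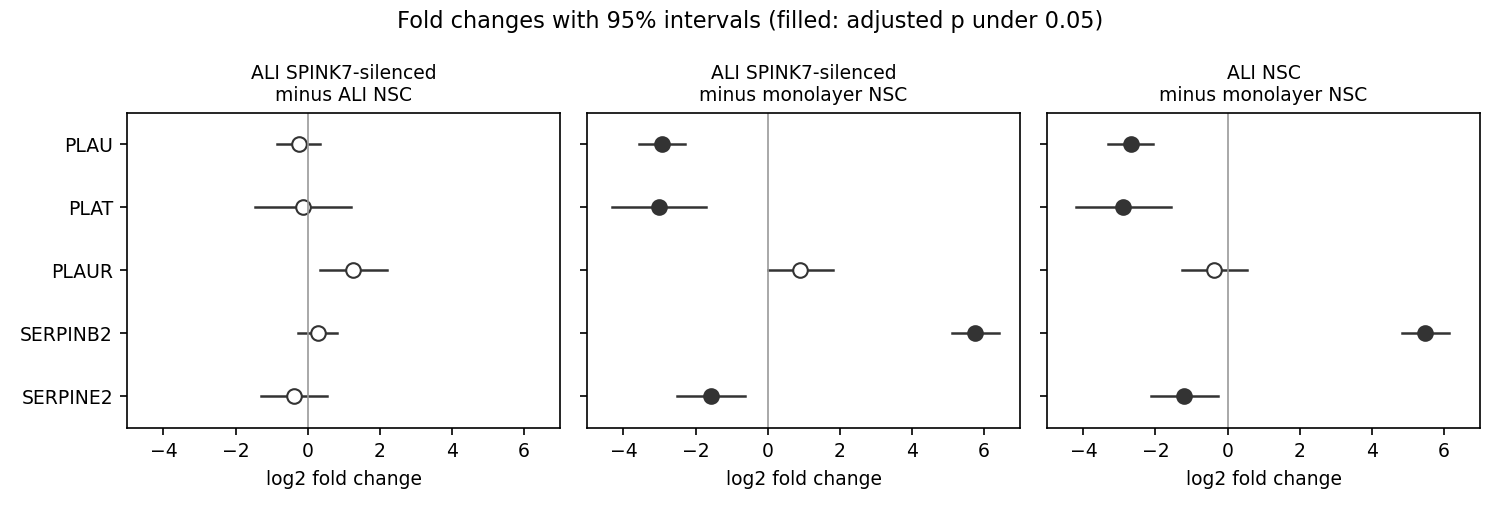
Log2 fold changes (horizontal axis) of the 5 genes in the 3 comparisons, with 95% intervals, filled where the adjusted p was under 0.05. Against the monolayers both ALI groups show the same calls, 1 gene higher and 3 lower, and between the ALI groups no point is filled.

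The start regions of SERPINB2 and PLAU, abundant genes that changed in opposite directions, and of PLAUR, the gene nearest to a change on silencing, are given here as RefSeq has them (build GRCh38.p14, not the hg19 of the tables). Each holds 250 bases before and 50 after the annotated start, 5′ to 3′ on the gene's strand. RefSeq windows matched 4 of the 5 genes, and for PLAU the downstream of its annotated starts is shown. Capitals mark matches to the AP-1 motif TGANTCA, which is its own reverse complement, or to TATAAA, searched on both strands. The windows are chr18:63887455-63887754 (plus strand), chr10:73910882-73911181 (plus strand) and chr19:43670120-43670419 (minus strand).
SERPINB2: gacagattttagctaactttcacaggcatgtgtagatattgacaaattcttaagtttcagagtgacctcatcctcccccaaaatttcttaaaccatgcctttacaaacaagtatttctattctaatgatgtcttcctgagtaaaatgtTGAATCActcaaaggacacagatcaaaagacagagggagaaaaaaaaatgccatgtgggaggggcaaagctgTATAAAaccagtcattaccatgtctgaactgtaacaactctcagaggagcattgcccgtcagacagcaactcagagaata
PLAU: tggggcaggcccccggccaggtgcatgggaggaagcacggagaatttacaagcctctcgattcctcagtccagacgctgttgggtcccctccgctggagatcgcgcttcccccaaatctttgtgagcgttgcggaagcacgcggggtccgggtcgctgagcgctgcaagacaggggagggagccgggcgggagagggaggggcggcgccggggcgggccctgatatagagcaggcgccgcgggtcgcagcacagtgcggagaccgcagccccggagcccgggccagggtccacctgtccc
PLAUR: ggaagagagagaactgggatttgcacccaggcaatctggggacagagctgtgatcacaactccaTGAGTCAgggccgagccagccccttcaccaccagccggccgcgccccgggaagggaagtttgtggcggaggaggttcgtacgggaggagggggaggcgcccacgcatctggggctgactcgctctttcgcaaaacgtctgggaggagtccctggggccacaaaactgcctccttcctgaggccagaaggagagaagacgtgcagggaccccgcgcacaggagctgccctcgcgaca

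In the SERPINB2 window the AP-1 match began 102 bases and the TATAAA match 30 bases before the start, and in the PLAUR window the AP-1 match began 186 bases before it. The matches of the 2 motifs did not overlap. Neither motif was in the PLAU window shown, in its upstream window or in the 2 windows of SERPINE2. Of 35116 RefSeq windows of this length, 7.71% held TGANTCA and 11.5% held TATAAA on either strand. The matches are letters in a window and say nothing of binding.

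Per transcript length, the order of the genes was reversed for the first and last of the abundant ones. In the authors' RPKM (reads per kilobase of transcript, scaled for library depth), SERPINB2 stood at 651 ± 109 in ALI NSC libraries, against 16.4 ± 2.85 in monolayers, and PLAU at 66.7 ± 22.2, against 480 ± 8.52 (SD, n = 3 each). SERPINB2 in RPKM was 9.996, 14.5 and 7.15 times PLAU in ALI NSC libraries 1, 2 and 3, against 0.0416, 0.0291 and 0.0319 times in the monolayers. SERPINB2 thus exceeded PLAU in every ALI NSC library and stayed far under it in every monolayer. In the monolayers the RPKM order was PLAU, SERPINE2, PLAUR or SERPINB2, then PLAT. PLAUR and SERPINB2 changed places between monolayer libraries, at 15.0, 17.5 and 18.3 RPKM for PLAUR and 19.6, 14.2 and 15.3 RPKM for SERPINB2. In ALI NSC libraries the order was SERPINB2, SERPINE2, PLAU, PLAUR and PLAT in each library. Of the summed RPKM of the 5 genes, PLAU made up 7.95, 5.30 and 10.5% in ALI NSC libraries, against 62.3, 58.3 and 57.1% in monolayers. SERPINB2 made up 79.5, 76.9 and 75.0% in ALI NSC libraries, against 2.59, 1.69 and 1.82% in monolayers.

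**Figure D3:**
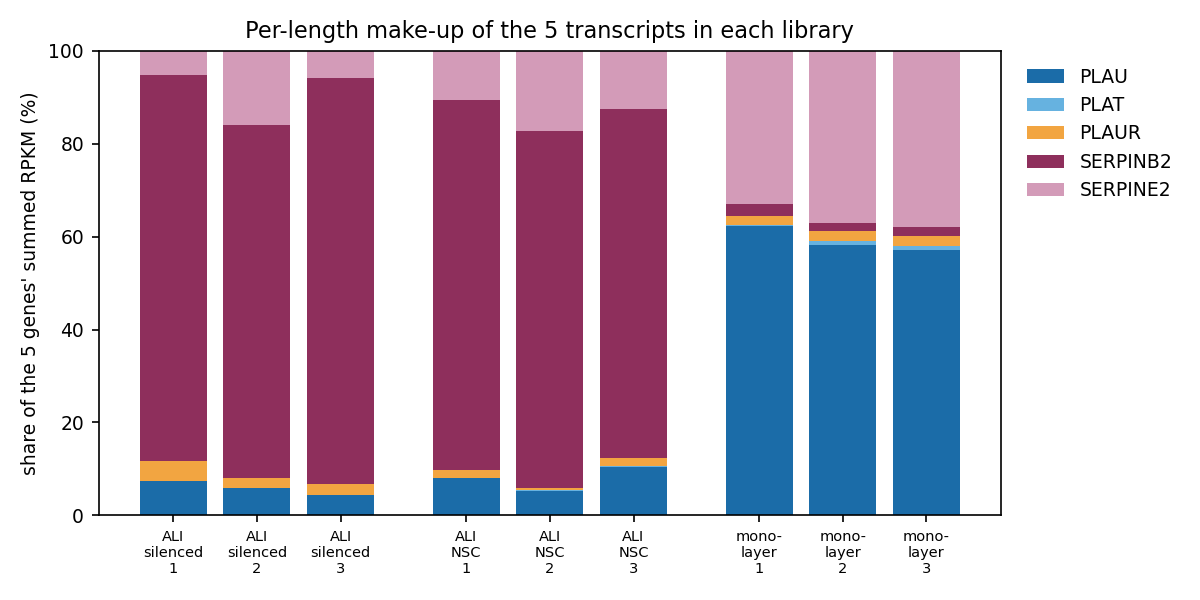
Share of the summed RPKM of the 5 genes (vertical axis, %) in each library, with ALI SPINK7-silenced libraries left, ALI NSC libraries in the middle and monolayers right. SERPINB2 takes 75.0% or more in the 6 ALI libraries, and PLAU takes 57.1% or more in the 3 monolayers.

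Silenced and control ALI cultures were compared next. Their summed stratified squamous markers did not overlap, being lower in the silenced libraries. Of the single markers KRT1, KRT10, KRT4 and DSG1 were lower without overlap, while SPRR3, TGM1, CRNN, KRT13 and IVL overlapped. TGM1 had 489.5, 630 and 430 CPM in silenced libraries, against 463, 226.5 and 585 CPM in ALI NSC libraries. The part of these markers in the comparison was not tested. None of the 5 plasminogen activator system genes passed (edgeR, adjusted p of at least 0.263, with 1 at an unadjusted p under 0.05). With DESeq2 or limma-voom 0 passed. Over all genes, 9.16% had an unadjusted p under 0.05. The intervals give what these libraries could still hold: the log2 fold change was -0.24 for PLAU (95% interval -0.84 to 0.35) and 0.28 for SERPINB2 (-0.26 to 0.81). PLAT gave -0.13 (-1.47 to 1.22), and its sign turned without ALI NSC library 3 or silenced library 2. The CPM ranges of the ALI groups overlapped for each of PLAU, PLAT, SERPINB2 and SERPINE2.

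PLAUR was the exception in range. It had 73.2, 41.9 and 46.2 CPM in silenced libraries 1, 2 and 3, against 32.7, 8.70 and 25.5 CPM in ALI NSC libraries. Every silenced library lay above every ALI NSC library, as did 5.76% of tested genes, and silenced library 1 was the highest of all 9. The means were 53.8 ± 16.9 CPM and 22.3 ± 12.3 CPM (SD, n = 3 each). The log2 fold change was 1.27 (SE 0.41, 95% interval 0.35 to 2.19), ranked 259th from the top, with an edgeR adjusted p of 0.263 (over alternatives 0.0243 to 0.782). Without both ALI libraries numbered 2, PLAUR averaged 59.7 CPM in silenced and 29.1 CPM in ALI NSC libraries (n = 2 each) and passed, with a log2 fold change of 1.04 (SE 0.24, edgeR adjusted p = 0.0243). That fit called 708 genes in place of 119. Against the monolayers, silenced cultures were higher for PLAUR in 3 of 3 libraries, by 0.91 on the log2 scale (SE 0.41, edgeR adjusted p = 0.115, over alternatives 0.00138 to 0.309), and 28.0% of tested genes lay above the monolayers without overlap. This passed without ALI NSC library 2 (0.00973), without both ALI libraries numbered 2 (0.00138) and in the fit on the 2 groups (0.0130). In RPKM, PLAU was 1.77, 2.59 and 1.77 times PLAUR in silenced libraries and 4.40, 9.74 and 5.85 times in ALI NSC libraries, against 31.4, 27.9 and 26.2 times in monolayers. PLAU overlapped between the ALI groups, so this ratio is no result separate from the PLAUR range there. How often ratios of other gene pairs differ in this way was not computed.

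SERPINE2 varied widely among the silenced libraries. In silenced cultures it had 135, 445 and 163 CPM, against 285, 414 and 265 CPM in ALI NSC cultures, so library 2 was the highest in each group. The log2 fold change was -0.38 (SE 0.42, 95% interval -1.30 to 0.55, edgeR adjusted p = 0.802, over alternatives 0.0237 to 1). Without both libraries numbered 2, the means were 149 CPM in silenced and 275 CPM in ALI NSC cultures (n = 2 each), and the gene passed at -0.89 (SE 0.20, edgeR adjusted p = 0.0237). Leaving out single libraries moved the log2 fold change between -1.13 (without silenced library 2) and -0.08 (without silenced library 1), with no call. The libraries numbered 2 also had the lowest proliferation markers of the ALI cultures, and the part of that difference in this result was not tested.

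**Figure D4:**
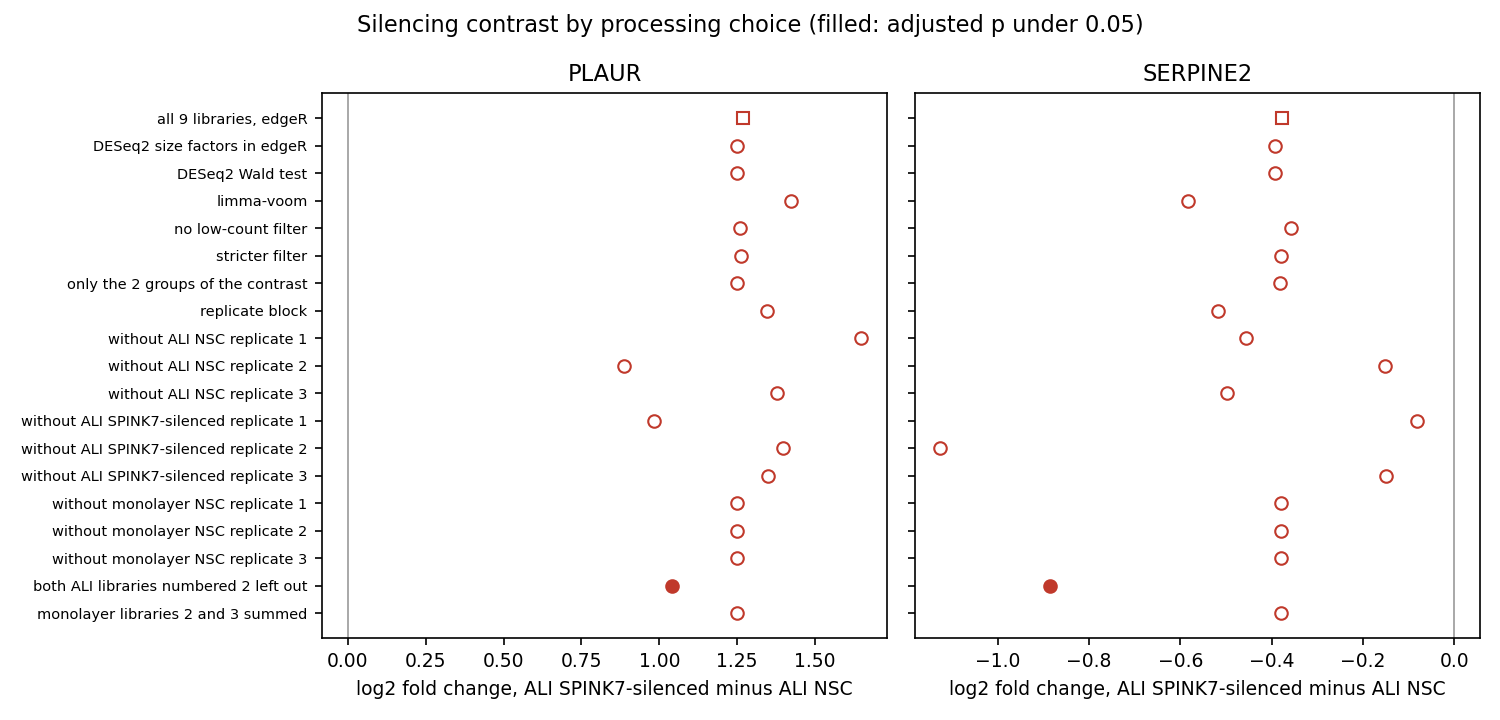
Log2 fold change of PLAUR and SERPINE2 in ALI SPINK7-silenced minus ALI NSC cultures (horizontal axis) under each processing choice (rows), filled where the adjusted p was under 0.05. PLAUR stays above 0 and SERPINE2 below 0 in every row, and the filled point in each panel is the fit without both ALI libraries numbered 2.

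The profile of each gene over the 9 libraries was set against 10559 tested genes with a mean of at least 5 CPM, by Pearson's r of log2 CPM. Since the libraries fall into groups, a high r mostly shows the same order of groups, and it is given as a description. Nearest to PLAU were ITGB6 (r = 0.997), an integrin subunit, CDH2 (0.995), N-cadherin, and MGAT5B (0.994), a glycosyltransferase. CDH2 averaged 0.224 CPM in silenced and 0.364 CPM in ALI NSC libraries, against 20.9 CPM in monolayers. MGAT5B averaged 0.789 CPM in silenced and 0.951 CPM in ALI NSC libraries, against 21.4 CPM in monolayers. CDH2 and MGAT5B thus reached the mean of 5 CPM through the monolayers alone. Nearest to SERPINB2 were MACC1 (0.999), CDSN (0.998), corneodesmosin of cornified layers, and EPB41L4B (0.998). MACC1 averaged 206 CPM in silenced and 169 CPM in ALI NSC libraries, against 4.21 CPM in monolayers. Nearest to PLAUR were TAGLN (0.975), an actin-binding protein, MED26 (0.965), a Mediator subunit, and ABAT (0.959). TAGLN averaged 61.0 CPM in silenced libraries and 19.3 CPM in ALI NSC libraries, against 21.7 CPM in monolayers. PLAT was nearest to COL12A1 (0.978), a collagen, CREB3 (0.968) and ZFP64 (0.968), and SERPINE2 to ZNF217 (0.979), ZNF841 (0.974) and SLC37A3 (0.973).

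Other genes of the plasminogen system were taken as 8 lists by role, with 44 genes, of which 30 were tested. In ALI NSC against monolayer cultures 12 of 30 fell and 2 rose (13 and 3 without both ALI libraries numbered 2, 10 and 1 with monolayers 2 and 3 summed), with a median log2 fold change of -0.64, against 0.028 over all tested genes. In silenced against monolayer cultures 12 fell and 1 rose (14 and 2, or 10 and 1, in the same fits), with a median of -0.53, against 0.037 over all tested genes. Over all tested genes 20.2% fell and 20.3% rose in the first comparison, and 15.9% fell and 15.8% rose in the second. An unadjusted edgeR p under 0.05 was as common in the lists as over all tested genes, at 50% in the first and 43.3% in the second. On silencing within ALI cultures none passed with edgeR, DESeq2 or limma-voom, and 0.929% of all tested genes passed with edgeR. With edgeR, 1 of the 30 (3.33%) had an unadjusted p under 0.05, against 9.16% of all tested genes. The median was 0.043, against 0.0059 over all tested genes.

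Of the other inhibitors of plasminogen activators, 1 was tested. SERPINI1, the neuroserpin gene, whose product inhibits tPA, had 1.87, 2.75 and 2.11 CPM in silenced and 1.88, 4.04 and 0.846 CPM in ALI NSC libraries, against 0.991, 1.21 and 0.851 CPM in monolayers. It was scarce throughout and did not pass in any comparison with all libraries, with a log2 fold change of 1.124 in ALI NSC against monolayer cultures (SE 0.54, edgeR adjusted p = 0.120, over alternatives 0.0289 to 0.553), and it passed there without ALI NSC library 3. In silenced against monolayer cultures it gave 1.135 (SE 0.53, edgeR adjusted p = 0.127, over alternatives 0.0368 to 0.281). SERPINI1 passed in that comparison in the fit on the 2 groups and without ALI NSC library 2.

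Plasminogen itself (PLG) had 0 counts in each library, where a count of 0 allows up to 3 counts, or 0.206 to 0.402 CPM. None of 4 plasminogen receptors passed in any comparison. The most abundant of them, ANXA2 (annexin A2), averaged 2994 ± 423 CPM in silenced and 2942 ± 503 CPM in ALI NSC cultures, against 2649 ± 329 CPM in monolayers (SD, n = 3 each). Of 2 tested plasmin inhibitors, neither passed in ALI NSC against monolayer cultures and SERPINF2, the antiplasmin gene, fell in silenced against monolayer cultures (log2 fold change -1.81, edgeR adjusted p = 0.0323, over alternatives 0.00311 to 0.119) at a mean of 1.44 CPM over all libraries. That call was lost without silenced library 1 or 3, without monolayer library 1 or 3, and with monolayers 2 and 3 summed (0.056). In ALI NSC against monolayer cultures SERPINF2 passed when both ALI libraries numbered 2 (0.0386) or the silenced one of them were left out. TFPI2, a Kunitz-type inhibitor of plasmin, was the more abundant and gave -0.57 in ALI NSC against monolayer cultures (SE 0.47, edgeR adjusted p = 0.345). ST14, the gene of matriptase, which can activate the urokinase proenzyme, averaged 217 ± 70.4 CPM in silenced and 151 ± 78.0 CPM in ALI NSC cultures, against 137 ± 8.24 CPM in monolayers, and did not pass in any comparison. Without both ALI libraries numbered 2 it passed against the monolayers in silenced (log2 fold change 0.84, edgeR adjusted p = 0.0032, over alternatives 0.0032 to 0.53) and in ALI NSC cultures (0.52, adjusted p = 0.0392, over alternatives 0.0392 to 0.999).

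In ALI NSC against monolayer cultures 20.2% of all tested genes fell. Of the partners of the urokinase receptor, 6 of 6 tested integrin subunits did, with a median of -1.79. Among them ITGB6 averaged 60.9 ± 16.2 CPM in ALI NSC cultures, against 399 ± 28.1 CPM in monolayers (log2 fold change -2.71, SE 0.25, edgeR adjusted p = 2.81e-05). The log2 fold change was -2.71 for ITGA5, a fibronectin receptor subunit, -1.94 for ITGA3, a laminin receptor subunit, and -1.27 for ITGB1, their shared partner. In silenced against monolayer cultures the same count of 6 of 6 fell, with a median of -1.57, where 15.9% of all tested genes fell. The ITGA3 call there (edgeR adjusted p = 0.0189, over alternatives 0.000737 to 0.0864) was lost without silenced library 2 or 3 and without monolayer library 1 or 2, and the other 11 integrin calls against the monolayers held in all 18 alternatives. Between the ALI groups ITGA3 had the only unadjusted p under 0.05 of the 30 genes (log2 fold change 0.81, SE 0.31, edgeR adjusted p = 0.379).

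The clearance receptor list held 6 tested genes, namely receptors that take up protease and serpin complexes and genes associated with them. Of these, 4 fell in ALI NSC cultures and 3 in silenced cultures against the monolayers, where 20.2% and 15.9% of all tested genes fell. VLDLR and SORL1, named after their values were seen, did not pass in ALI NSC against monolayer cultures (log2 fold change -0.087 and -0.091, edgeR adjusted p = 0.886 and 0.811). In silenced against monolayer cultures VLDLR gave -0.054 with all libraries and did not pass (edgeR adjusted p = 0.936). Once the number 2 libraries of both ALI groups were dropped, VLDLR fell there, at -0.80 (edgeR adjusted p = 0.00511). Dropping only the silenced one of that pair also made VLDLR pass. LRP1, the main such receptor, had 23.3, 10.1 and 27.4 CPM in ALI NSC libraries, against 577, 420.5 and 375 CPM in monolayers. No library overlapped, and the log2 fold change was -4.49 (SE 0.47, edgeR adjusted p = 6.97e-05). The log2 fold change was -1.995 for MRC2, the urokinase receptor-associated collagen receptor, -1.24 for IGF2R, which binds the urokinase receptor, and -0.98 for LRPAP1, the chaperone of LRP1. The LRPAP1 call (edgeR adjusted p = 0.0205, over alternatives 0.00523 to 0.0717) was lost without any 1 of the monolayer libraries and with monolayers 2 and 3 summed (0.0534). LRPAP1 did not pass in silenced against monolayer cultures (log2 fold change -0.58, edgeR adjusted p = 0.143, over alternatives 0.0208 to 0.337), but did without ALI NSC library 2, without both ALI libraries numbered 2 (0.0299) and in the fit on 2 groups. The IGF2R call in silenced against monolayer cultures (log2 fold change -0.78, edgeR adjusted p = 0.0478, over alternatives 0.000953 to 0.178) was lost in 10 of 18 alternatives, among them those without ALI NSC library 1 or 3, silenced library 1 or 3 or any 1 monolayer library, and with monolayers summed (0.11). The LRP1 and MRC2 calls against the monolayers held in all 18.

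Among 6 tested coagulation and protease-activated receptor genes, THBD and PROCR rose and F2R and TFPI fell in ALI NSC against monolayer cultures (PROCR, the endothelial protein C receptor, was named after its values were seen). THBD, thrombomodulin, had 129, 81.4 and 96.0 CPM in ALI NSC libraries, against 27.3, 12.2 and 13.3 CPM in monolayers (log2 fold change 2.53, SE 0.33, edgeR adjusted p = 0.00029). It gave 1.85 in silenced against monolayer cultures (edgeR adjusted p = 0.00203). In ALI NSC cultures the log2 fold change was -0.92 for F2R, the thrombin receptor PAR1, and -2.93 for TFPI, the tissue factor pathway inhibitor. The F2R call (edgeR adjusted p = 0.0437, over alternatives 0.000114 to 0.13) was lost in 8 of 18 alternatives, among them those without ALI NSC library 1 or 3, silenced library 3 or any 1 monolayer library, and with monolayers 2 and 3 summed (0.0773). The PROCR call (log2 fold change 0.69, edgeR adjusted p = 0.0252, over alternatives 0.0057 to 0.108) was lost without any 1 monolayer library and with them summed (0.0773). The THBD call held in all 18. TFPI was scarce, with a mean of 1.34 CPM over all libraries. It had 2, 5 and 3 counts in ALI NSC and 4, 8 and 4 counts in silenced libraries, against 65, 16 and 30 counts in monolayers. TFPI thus passed the expression filter through the monolayers alone, and its fold change rests on few ALI counts. F3, tissue factor, was the most abundant and did not pass (-0.70, SE 0.53, edgeR adjusted p = 0.317). None of 3 tested growth factor genes passed. MET, the receptor of hepatocyte growth factor, which these proteases can activate, averaged 191 ± 24.9 CPM in silenced and 144 ± 14.0 CPM in ALI NSC cultures, against 146 ± 22.3 CPM in monolayers.

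**Figure D5:**
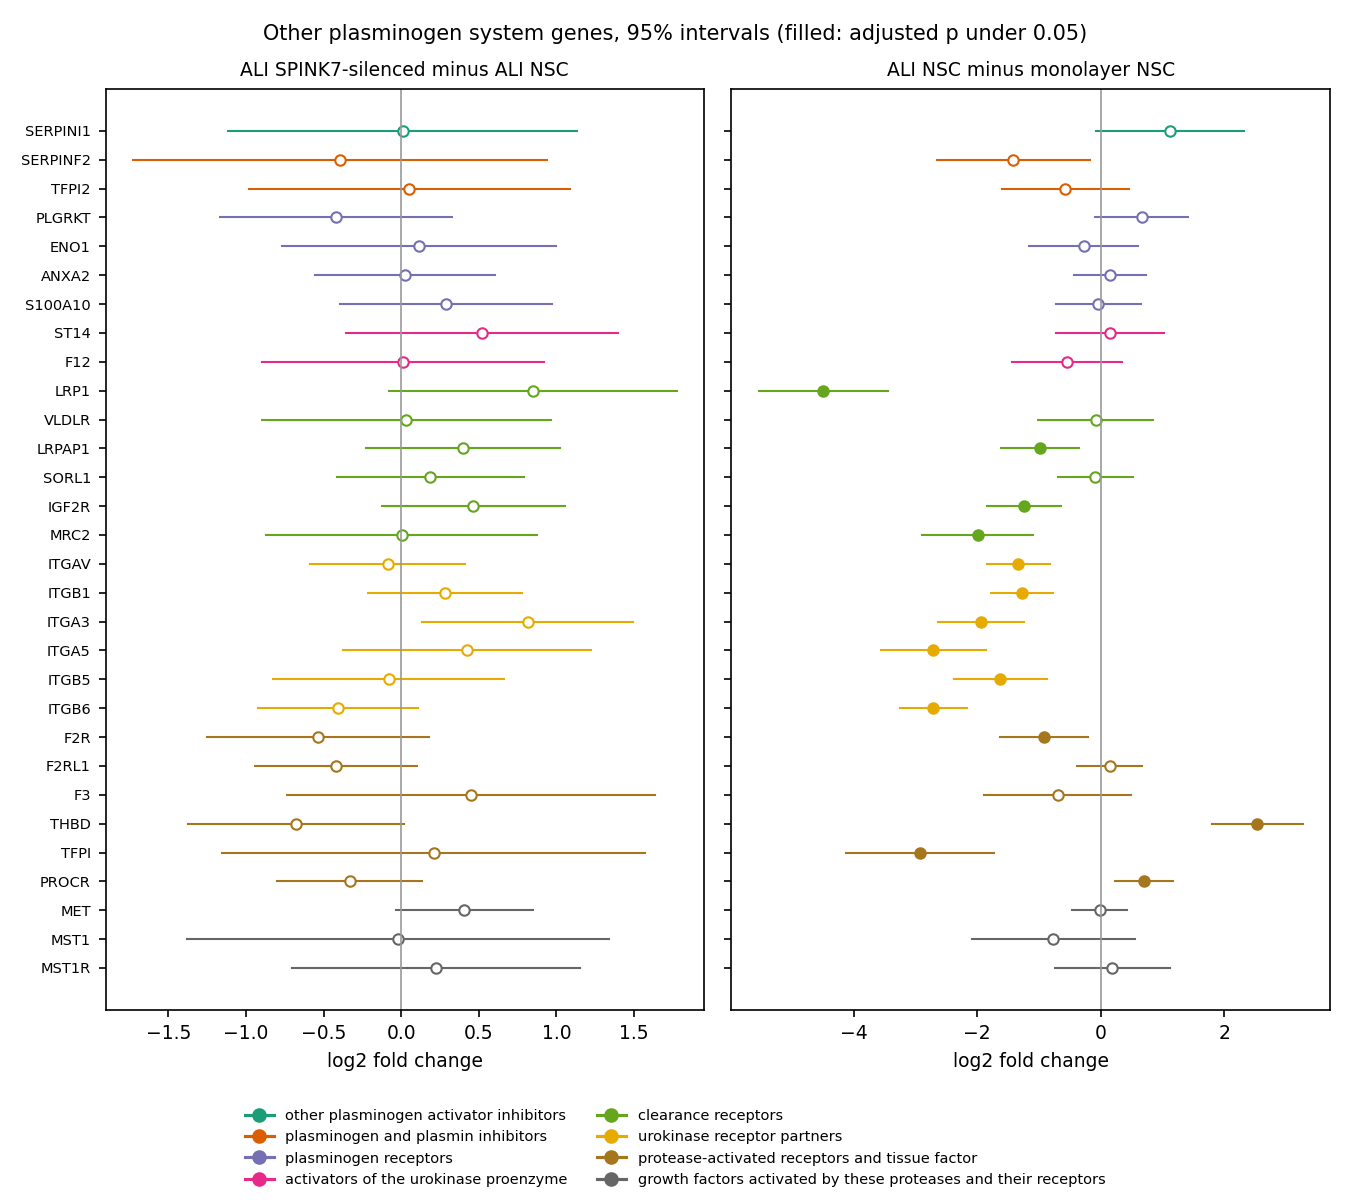
Log2 fold changes with 95% intervals of the 30 tested genes of the plasminogen system lists (rows, coloured by list), for ALI SPINK7-silenced minus ALI NSC (left) and ALI NSC minus monolayer NSC (right), filled where the adjusted p was under 0.05. No point is filled on the left, and 14 are filled on the right, 12 of them below 0; the axes of the panels differ.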

How the data were processed

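RNA of 9 EPC2 libraries was sequenced as polyA-selected, stranded libraries, per the labels' protocols. The authors deposited 1 table per library with whole-number read counts per RefSeq transcript row, not normalized, and an RPKM value made by the authors, per the file headers. The build is hg19 per the submitters' processing notes, which also list STAR (2.4.2a), MACS2 and Bowtie but not what each did. How reads were counted, on which annotation and whether by strand, is not given in the sources used here.

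Counts were summed per gene symbol and chromosome (24672 genes from 29800 rows). Genes were kept with filterByExpr (minimum count 10) and tested with edgeR 4.0.16 (R 4.3.3), using TMM scaling, 1 robust quasi-likelihood model of the 9 libraries with no replicate block, and the quasi-likelihood F-test for each of 3 contrasts between the groups. Adjusted p-values are Benjamini-Hochberg values over all 12806 tested genes of each contrast (threshold 0.05). Standard errors (SE) come from the F statistic, and 95% intervals use the test's own degrees of freedom. CPM values are counts scaled by the TMM-adjusted library size. The self-test ran the same functions on simulated counts. RPKM values are used to compare levels between genes within a library. Their means, ratios and shares are also set side by side between groups, as a description without a test.

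The members and lists were chosen with earlier results of these data known. The genes named beyond the members follow a rule: from each pathway list, the most abundant tested gene and up to 3 others that passed in any contrast, and for each member the 3 genes with the most similar profile. Genes outside it are marked in the text, the other list genes enter the counts alone, and 1 further gene of the system is not reported here. Alternatives were DESeq2 size factors, the DESeq2 1.42.0 Wald test, limma-voom (limma 3.58.1), no filter and a stricter filter (at least 5 CPM in 3 libraries), fits on 2 groups, a replicate block, each library left out, both ALI libraries numbered 2 left out, and monolayer libraries 2 and 3 summed. Their use on the pathway lists was chosen after seeing the data.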

Additional observations from a re-analysis of the deposited data

How the results depend on the processing

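In the comparisons with the monolayers, PLAU, PLAT and SERPINB2 kept direction and call in all 18 alternatives. On silencing, PLAU and SERPINB2 kept direction and did not pass in any. Calls over all genes on silencing, 119 with all libraries, were 415 with DESeq2, 59 in the fit on 2 groups, 79 with monolayers 2 and 3 summed, 708 without both ALI libraries numbered 2, and 28 to 236 with 1 library left out. In silenced against monolayer cultures, 4058 calls became 6459 without both ALI libraries numbered 2 and 2653 to 5743 with 1 library left out. Without both ALI libraries numbered 2, the log2 fold change on silencing was 1.04 for PLAUR and -0.89 for SERPINE2 and both passed, and PLAUR turned from -0.36 to 0.026 in ALI NSC against monolayer cultures. With 1 library left out, PLAUR ranged from -0.74 to 0.025 there, and PLAT on silencing from -0.60 to 0.094 (0.073 without ALI NSC library 3). SERPINE2 in ALI NSC against monolayer cultures gave -1.17 with DESeq2 size factors (adjusted p = 0.0517), -1.15 with monolayers summed, and -1.42 to -1.07 with 1 library left out. In silenced against monolayer cultures SERPINE2 gave -1.53 with monolayers summed and -2.32 to -1.28 with 1 library left out. PLAUR gave 0.92 there in the fit on 2 groups, 1.07 without both ALI libraries numbered 2, and 0.62 to 1.05 with 1 library left out. The causes were not tested, beyond the fewer libraries or genes of each fit. Libraries of the ALI groups shared replicate numbers only: deviations of silenced and ALI NSC libraries correlated at 0.495, 0.577 and -0.006 for numbers 1, 2 and 3, and silenced library 1 correlated best with ALI NSC library 3 (0.637). These are the numbers in the labels, and the deposited tables number some ALI libraries differently, so the block could change with that numbering, which was not fitted. The silenced and ALI NSC libraries numbered 2 in the labels share a number in the deposited tables too. With the replicate block, 176 genes passed on silencing, 113 of them among the 119, PLAUR gave 1.35 (adjusted p = 0.136), and no call of the 5 genes changed. At 13 to 244 counts a library, PLAT was the gene that depth limited most.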
